A study of Mus musculus with 4 samples.

Results

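Gata4, Gata6, Mef2a, Mef2c, Mef2d, Nkx2-5, Tbx5, Tbx20 and Hand2 are the core transcription factors of the heart muscle cell, and were taken by name from single-nucleus RNA sequencing of neonatal mouse hearts as 9 of the 22574 genes counted. Their levels were followed across 4 libraries, 1 for each combination of genotype and surgery, and across the 4 cardiomyocyte populations that the authors named CM1 (with CM3 merged into it), CM2, CM4 and CM5. All mice carried loxP-flanked alleles of Nrf1 (Nrf1fl/fl) in the C57BL/6 background. Nrf1 here is the stress-response factor encoded by Nfe2l1. The KO animals also carried aMHC-Cre, a recombinase driven in cardiomyocytes by the promoter of alpha myosin heavy chain, and the WT animals did not. Pups had myocardial infarction (MI) by ligation of the left anterior descending artery, or Sham surgery without ligation, at postnatal day 3, and hearts were taken at postnatal day 4. Each library was 1 pool of tissue from 4 to 6 hearts below the ligation plane. There is therefore no replicate of any group, no test was run, and every interval given here is an exact 95% interval that covers counting error only.

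These factors bind DNA together at the enhancers and promoters of contractile, ion channel and natriuretic peptide genes. GATA4 and GATA6 are zinc finger factors, the MEF2 proteins are MADS-box factors that class IIa histone deacetylases hold in check, NKX2-5 is a homeodomain factor, TBX5 and TBX20 are T-box factors, and HAND2 is a basic helix-loop-helix factor of the ventricles. Several are also transcribed in other cells of the heart, among them Gata4, Gata6, Tbx20 and Hand2 in endocardium, epicardium or fibroblasts and Mef2c in endothelium.

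The libraries held 1406 (WT-Sham), 3328 (KO-Sham), 2003 (WT-MI) and 1848 (KO-MI) nuclei and 4984625 to 9106522 unique molecular identifiers (UMIs, counts of captured RNA molecules) each. The library labelled KO-Sham was the shallowest per nucleus, with a median of 2572 UMIs against 3554 to 3959 in the others, and had the highest median percent of mitochondrial UMIs, 8.98% against 5.29% to 6.58%. All 8 cardiomyocyte markers, Tnnt2 among them, which the authors used to choose the nuclei, were detected in all 4 libraries. Of the 8585 nuclei, 18 carried a barcode found in another library. Nfe2l1, the targeted gene, stood at 62.2, 50.5, 47.4 and 55.3 CPM (UMIs of a gene scaled to a library total of 1000000) in the libraries labelled WT-Sham, KO-Sham, WT-MI and KO-MI. Over all nuclei it was thus lower in the library labelled KO-Sham than in WT-Sham (log2 ratio −0.30, −0.51 to −0.09) and higher in the library labelled KO-MI than in WT-MI (0.22, 0.02 to 0.43), against the label. By population, Nfe2l1 was higher in KO-MI than in WT-MI in CM1 (57.7 against 44.1 CPM) and CM5 (57.0 against 54.8 CPM). It was lower, with the label, in CM2 (31.0 against 54.4 CPM, 9 and 14 UMIs) and CM4 (32.0 against 61.7 CPM, 11 and 26 UMIs). The matrix holds 1 sum per gene, which does not show whether these UMIs lie in the deleted part. KO and WT below name what the labels say.

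All 9 genes were detected in every library, and together they gave 2460 to 2695 CPM. Gata4 gave the most UMIs, 22089 over the 4 libraries, and Tbx5 the fewest, 750. Nuclear RNA holds introns and these genes span 3.65 to 163 kb, so levels were compared between genes per kb of gene span (GENCODE M21, GRCm38). Whether UMIs scale with span was not tested. On that scale Gata4 was at 8.77 to 11.5 CPM per kb over the libraries and Hand2 at 9.50 to 14.6, and these ranges overlapped. Tbx20 (6.67 to 8.65), Gata6 (5.74 to 8.35), Mef2d (4.79 to 6.05), Nkx2-5 (4.04 to 6.85) and Mef2a (3.86 to 5.08) followed, each overlapping the next in CPM per kb. Mef2c (1.29 to 1.63) and then Tbx5 (0.373 to 0.741) stood below all others in CPM per kb without overlap. Without division by span the order differed. Mef2c was then at 211 to 265 CPM, above Mef2d (142 to 180), Hand2 (34.7 to 53.4) and Nkx2-5 (25.6 to 43.5). The Poisson interval of a level reached at most 3.37% from the level for Gata4 and at most 17.5% for Tbx5, so the 3 genes with few UMIs, Tbx5, Nkx2-5 and Hand2, are the least precise.

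**Figure D1:**
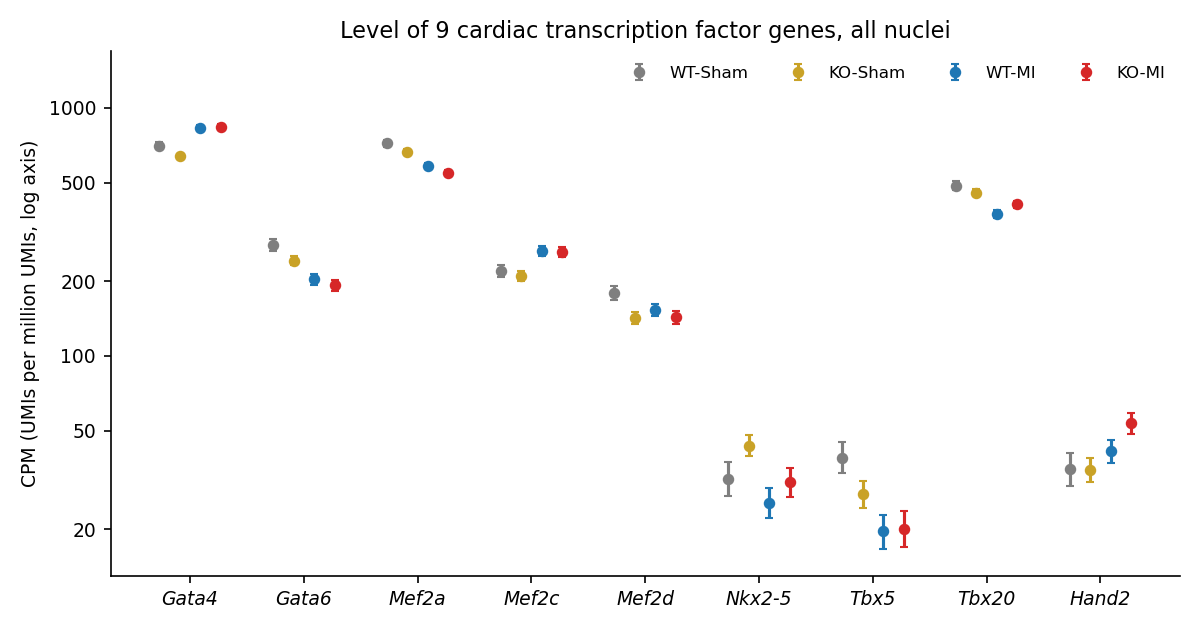
CPM of the 9 genes over all nuclei of each library, on a log axis. Each point is 1 library and its bar the exact 95% Poisson interval. The MI libraries lie above the Sham libraries for Gata4 (830.2 and 838 against 638 and 703 CPM) and below them for Gata6 (193 and 203 against 242 and 280.5 CPM).

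The comparison of MI with Sham asks how the factors differed 1 day after infarction, and it can be read in both genotypes. The members of the GATA and MEF2 families did not go the same way, while both T-box genes did. Over all nuclei, Gata4 and Mef2c were higher in both MI libraries, while Gata6, Mef2a, Tbx5, Tbx20 and Nkx2-5 were lower in both.

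Gata4 (chr14:63198922-63271692, minus strand) was at 703 CPM in WT-Sham, 638 in KO-Sham, 830.2 in WT-MI and 838 in KO-MI. Both MI libraries were above both Sham libraries, with a log2 ratio of MI over Sham of 0.24 (0.18 to 0.30) in the WT pair and of 0.39 (0.34 to 0.44) in the KO pair. Gata6 (chr18:11052064-11085635, plus strand), the other GATA factor of the myocardium, was at 280.5, 242, 203 and 193 CPM in the same order. Its MI libraries were below its Sham libraries, with log2 ratios of −0.46 (−0.57 to −0.36, WT) and −0.33 (−0.43 to −0.23, KO). The share of Gata4 in the UMIs of Gata4 and Gata6, which does not depend on scaling to total UMIs, was 71.5% (70.2 to 72.8) and 72.5% (71.5 to 73.5) in WT-Sham and KO-Sham. It was 80.3% (79.4 to 81.2) and 81.3% (80.4 to 82.2) in WT-MI and KO-MI. The intervals of the Sham and MI libraries were separate, and those of WT and KO under the same surgery overlapped. A long noncoding gene on the opposite strand, 1010001N08Rik, starts 503 bp from Gata6 and overlaps it. It was at 305, 246, 126 and 149 CPM, and so was also lower after MI, at log2 ratios of −1.28 (−1.39 to −1.16, WT) and −0.72 (−0.83 to −0.62, KO). Whether the counting used strand is not given in the sources used here, so reads of overlapping genes on opposite strands may not be told apart.

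The MEF2 family also differed in its balance. Mef2a (chr7:67231163-67372858, minus strand) was at 720.2, 665, 585 and 546 CPM in WT-Sham, KO-Sham, WT-MI and KO-MI, and Mef2c (chr13:83504034-83667080, plus strand) at 220.1, 211, 265 and 263 CPM. Each gene's MI libraries stood apart from its Sham libraries, Mef2a below them (log2 ratios −0.30, −0.36 to −0.24, in WT and −0.28, −0.34 to −0.23, in KO) and Mef2c above them (0.27, 0.16 to 0.38, and 0.32, 0.23 to 0.41). Mef2d (chr3:88142372-88172086, plus strand), the third member, was at 179.8, 142, 153 and 143 CPM. WT-Sham alone was high, so that Mef2d was lower after MI in WT (−0.23, −0.36 to −0.11) while the KO ratio was 0.01 (−0.11 to 0.12) and turned slightly negative with TMM or DESeq2 scaling (−0.044 and −0.048). Mef2c made up 19.6% (18.6 to 20.7) and 20.7% (19.9 to 21.5) of the family's UMIs in WT-Sham and KO-Sham, and 26.4% (25.5 to 27.4) and 27.6% (26.6 to 28.7) in WT-MI and KO-MI. The share of Mef2a was 64.3% and 65.3% in the Sham libraries and 58.3% and 57.4% in the MI libraries. That of Mef2d was 15.3% (14.5 to 16.1) in WT-MI and 15.0% (14.2 to 15.9) in KO-MI, overlapping the intervals of the Sham library of the same genotype.

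Sequence before the start of Mef2a and of Mef2c is shown because these paralogs differed in opposite directions. It comes from RefSeq (GRCm38.p6), whose promoter table matched 6 of the 9 genes, as windows of 300 bases. 5 motifs were searched on both strands. These were the MEF2 motif of 10 letters shown in capitals at the end of the Mef2a stretch, GATAA for GATA factors, AAGTG for NKX2-5, GGTGTG for T-box factors, and the E-box CANNTG, which HAND proteins bind with their partners. Capitals mark matches. The Mef2a stretch is chr7:67372851-67373100 (minus strand) and ends 8 bases past the start. The Mef2c stretch is chr13:83503784-83504033 (plus strand), before the most upstream of its 3 RefSeq starts.
Mef2a: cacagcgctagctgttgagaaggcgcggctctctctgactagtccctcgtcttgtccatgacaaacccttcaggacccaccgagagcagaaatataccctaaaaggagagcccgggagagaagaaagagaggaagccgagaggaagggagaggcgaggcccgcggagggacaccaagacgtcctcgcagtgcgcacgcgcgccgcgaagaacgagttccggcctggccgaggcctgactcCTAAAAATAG
Mef2c: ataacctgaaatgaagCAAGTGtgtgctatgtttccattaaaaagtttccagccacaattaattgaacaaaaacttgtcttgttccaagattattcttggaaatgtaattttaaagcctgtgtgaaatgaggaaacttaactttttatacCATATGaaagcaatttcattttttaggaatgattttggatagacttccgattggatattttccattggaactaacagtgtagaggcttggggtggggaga
The MEF2 motif lay across the start of Mef2a itself, from base −2 to base 8. This 10-letter motif was searched as 1 exact string, and variants of it were not counted. The string was in 36 of the 32817 promoter windows of the genome (0.11%). The Mef2c stretch held 2 E-box matches, the outer overlapping an NKX2-5 match by their shared letters. E-box and NKX2-5 motifs were in 72.3% and 46.4% of all windows. The Mef2a window also held 1 T-box match past the stretch shown, at bases 13 to 18. T-box and GATA motifs were in 19.1% and 25.4% of all windows. The Mef2c windows not shown also held matches. That starting at 83523406 held 2 GATA, 1 NKX2-5 and 1 T-box match, and that starting at 83573357 held 1 NKX2-5 and 1 E-box match. The windows of Mef2d and Tbx20 held none of the 5 motifs and that of Nkx2-5 held 1 E-box. A match describes letters in these windows and is not evidence of a bound factor.

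Nkx2-5 (chr17:26838664-26845009, minus strand), among the earliest markers of the cardiac lineage, was at 31.9, 43.5, 25.6 and 31.0 CPM in WT-Sham, KO-Sham, WT-MI and KO-MI. KO-Sham was the highest, and the ratio of MI over Sham was −0.32 (−0.62 to −0.01) in WT, where thinning nuclei to 1000 UMIs turned it to 0.017, and −0.49 (−0.73 to −0.25) in KO. Tbx5 (chr5:119832668-119885219, plus strand), a factor of the conduction system and of chamber identity, was at 38.9, 27.7, 19.6 and 20.1 CPM. WT-Sham was highest and the MI libraries lay together at the bottom, with a ratio of −0.99 (−1.30 to −0.68, WT) and of −0.46 (−0.76 to −0.16, KO). Tbx20 (chr9:24718138-24774303, minus strand), a T-box factor required in adult and fetal cardiomyocytes, was at 486, 456, 375 and 408 CPM. Both its MI libraries were below both Sham libraries, with ratios of −0.37 (−0.45 to −0.30, WT) and −0.16 (−0.23 to −0.09, KO). Tbx5 made up 7.42% (6.44 to 8.49) of the UMIs of both T-box genes in WT-Sham and 4.70% to 5.72% in the other libraries.

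Hand2 and the gene opposite to it went apart. Hand2 (chr8:57320983-57324633, plus strand) was at 34.9, 34.7, 41.2 and 53.4 CPM in WT-Sham, KO-Sham, WT-MI and KO-MI, from 174 to 393 UMIs. The Sham libraries were alike and KO-MI was the highest, with a ratio of MI over Sham of 0.24 (−0.03 to 0.51) in WT and of 0.62 (0.40 to 0.84) in KO. Hand2os1, the long noncoding RNA of the opposite strand also known as upperhand, was at 597, 499, 351 and 369 CPM. It was lower in both MI libraries, with ratios of −0.77 (−0.84 to −0.69, WT) and −0.43 (−0.50 to −0.37, KO). Of the UMIs of the pair, Hand2 held 5.53% (4.75 to 6.38) in WT-Sham, 6.50% (5.83 to 7.23) in KO-Sham, 10.5% (9.47 to 11.7) in WT-MI and 12.6% (11.5 to 13.9) in KO-MI. In the same libraries Gata6 held 47.9%, 49.6%, 61.8% and 56.4% of the UMIs of Gata6 and 1010001N08Rik. In both pairs the protein-coding gene thus had the larger share after MI, although Gata6 itself was lower there.

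RefSeq places the starts of Hand2 and Hand2os1 124 bp apart on opposite strands, while the GENCODE M21 model of Hand2os1 (chr8:57281117-57324233) starts 3250 bp further along, inside Hand2, and so overlaps most of it. The 250 bases before Hand2 are shown because they end at its start and hold the RefSeq start of Hand2os1 (chr8:57320733-57320982, plus strand).
Hand2: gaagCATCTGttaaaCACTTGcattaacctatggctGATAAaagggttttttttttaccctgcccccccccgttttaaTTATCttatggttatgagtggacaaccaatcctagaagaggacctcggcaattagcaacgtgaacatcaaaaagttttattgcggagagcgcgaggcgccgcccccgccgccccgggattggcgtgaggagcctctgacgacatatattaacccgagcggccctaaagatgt
This stretch held 2 GATA matches, at bases −214 to −210 and, on the opposite strand, −172 to −168, and 2 E-box matches, the inner of which shares its letters with an NKX2-5 match. GATA matches were in 25.4% of all windows.

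**Figure D2:**
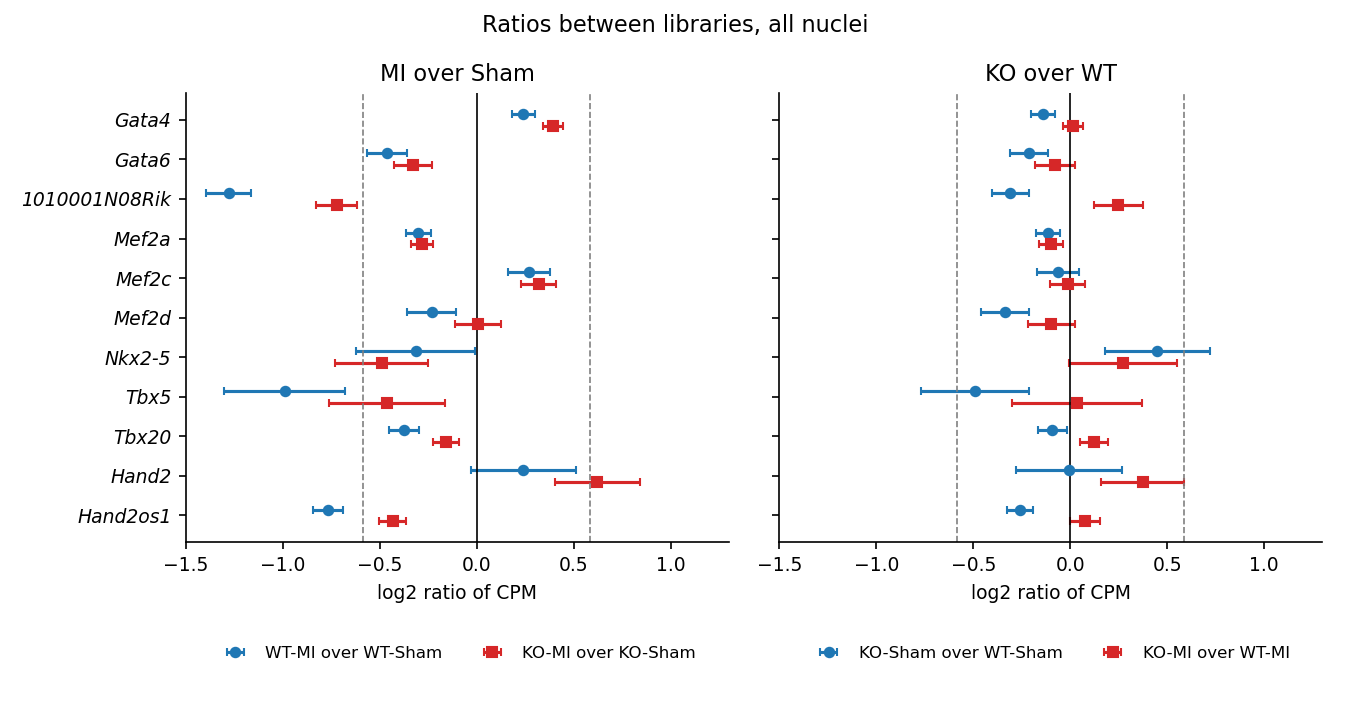
Log2 ratios of CPM between libraries over all nuclei for the 9 genes and for the antisense neighbours of Gata6 and Hand2, with exact 95% counting intervals. The left panel gives MI over Sham for WT (blue circles) and KO (red squares), the right panel KO over WT for Sham (blue circles) and MI (red squares). Dashed lines mark 1.5-fold. Gata4 and Mef2c lie right of 0 in both MI over Sham ratios and Gata6, Mef2a, Tbx5 and Tbx20 left of 0.

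Few of these differences were large. With the 1.5-fold change that the study used, and among genes with at least 20 UMIs over both libraries, 1 of the 9 genes was past it in WT-MI over WT-Sham, Tbx5, which was lower. Of all 13415 genes compared there, 15.9% were as far lower and 12.5% as far higher. In KO-MI over KO-Sham also 1 of the 9 was past 1.5-fold, Hand2, which was higher (and not past it with TMM or DESeq2 scaling or in thinned nuclei), against 14.1% of all genes higher and 12.5% lower. The median log2 ratio of the 9 was −0.30 for WT and −0.16 for KO, beside −0.066 and 0.045 over all genes. Counting error was nevertheless small beside most ratios: the interval lay wholly above 0 for 2 and below 0 for 6 of the 9 in WT, and above 0 for 3 and below 0 for 5 in KO.

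Values that could move with the surgery are given beside these ratios. Within CM1 alone, the largest population, the signs were the same: Gata4 was at 0.32 (WT) and 0.52 (KO), Mef2c at 0.26 and 0.44, Gata6 at −0.44 and −0.23, Mef2a at −0.26 and −0.20, Tbx5 at −0.95 and −0.35, and Tbx20 at −0.34 and −0.09. The signs did not all hold in the smaller populations. Mef2c was at 0.24 (WT) and 0.15 (KO) in CM2, 0.47 and −0.38 in CM4, and 0.43 and −0.13 in CM5. Mef2a was at −0.16 and 0.01 in CM2, 0.31 and −0.59 in CM4, and −0.58 and −0.72 in CM5. The 10 myeloid markers summed to 129 and 97.3 CPM in WT-Sham and KO-Sham and to 547 and 279 CPM in WT-MI and KO-MI, led by S100a8 and S100a9. The 5 epicardial markers summed to 24.5 and 25.1 CPM and then 56.3 and 49.9 CPM, with Krt19 higher in both MI libraries, and no marker of these lists was at 0. The 8 fibroblast markers (997 to 1197 CPM) and the 10 endothelial markers (565 to 920 CPM) were not higher after MI. The 6 mural markers summed to 412 and 348 CPM in WT-Sham and KO-Sham and to 249 and 256 CPM in WT-MI and KO-MI. Abcc9, which cardiomyocytes also express, gave most of this sum, at 339, 279, 152 and 154 CPM in the same order. Cspg4, another mural marker, was higher after MI, at 31.9, 25.7, 62.3 and 65.5 CPM. Of the 6, 3 had ratios of MI over Sham above 0 in each pair. The 5 endocardial markers summed to 30.5 and 27.7 CPM in Sham and 37.1 and 37.5 CPM in MI, and the 5 red blood cell markers to 3296 and 2318 CPM in Sham and 4519 and 2123 CPM in MI. UMIs of these lists other than red blood cell genes made up a mean of 0.245% to 0.272% of a nucleus, in each library. Ratios were also taken in only the nuclei of each library with the lower percent of such UMIs, an alternative chosen after the data were seen. There the ratios of MI over Sham kept their sign for all 9 genes. This percent counted Abcc9 and so did not measure other cells alone, and the part of other cells in the ratios was not tested. Median ratios of genes spanning under 10 kb and over 50 kb were −0.16 and −0.017 in WT and −0.14 and 0.13 in KO, and whether gene length had a part was not tested. In such sums fewer cells of a type and less RNA per cell cannot be told apart.

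**Figure D3:**
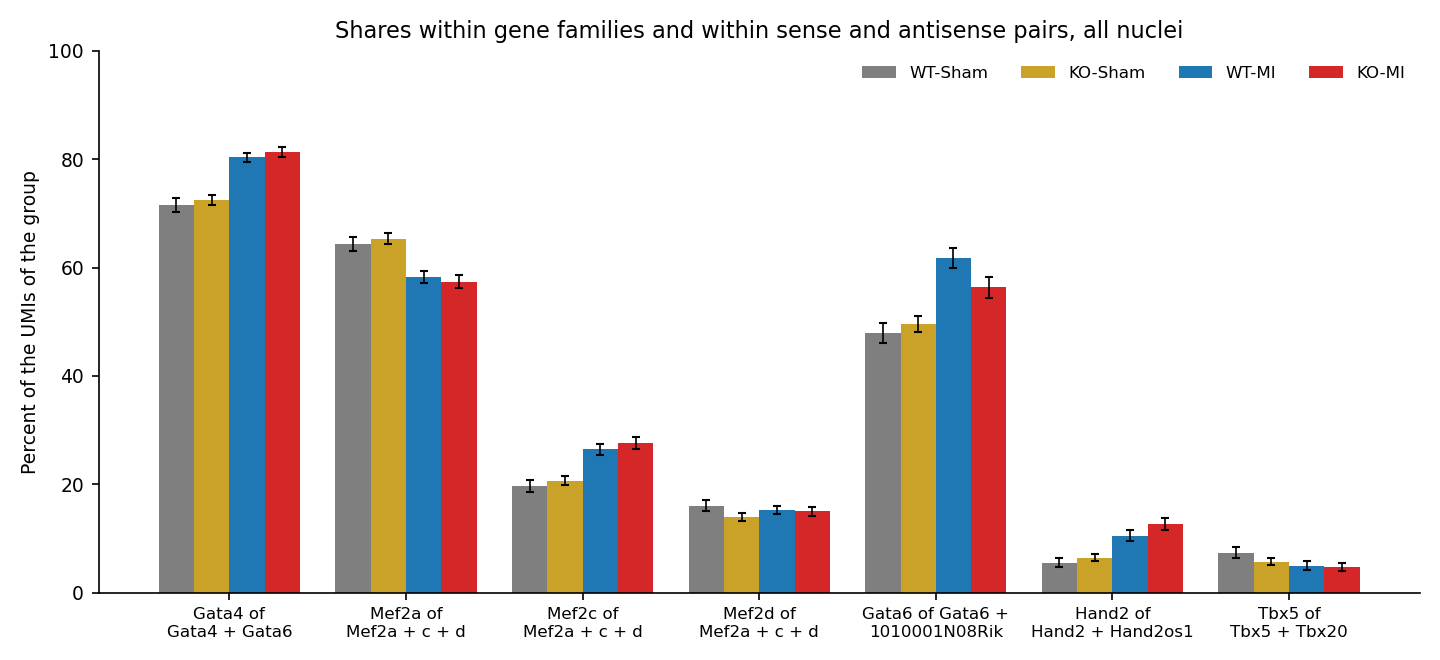
Percent of the UMIs of a family or of a sense and antisense pair that came from 1 gene, over all nuclei. Bars are libraries and whiskers exact 95% binomial intervals. Gata4, Mef2c, Gata6 and Hand2 have larger shares in the MI libraries than in the Sham libraries, Mef2a a smaller share.

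The comparison of KO with WT addresses what loss of Nrf1 in cardiomyocytes did to the factors. Since Nfe2l1 goes against the label in the MI pair over all nuclei, though not in CM2 or CM4, a direction there is that of the libraries as labelled. Over all nuclei, no gene of the 9 was past 1.5-fold in either pair. Of all genes, 5.74% were as far higher and 5.61% as far lower in KO-Sham over WT-Sham, and 3.94% and 3.68% in KO-MI over WT-MI. In the Sham pair 8 of the 9 ratios were below 0, with Tbx5 at −0.49 (−0.77 to −0.21), Mef2d at −0.34 (−0.46 to −0.21) and Gata6 at −0.21 (−0.31 to −0.11) the lowest, and those of Tbx20, Mef2c and Hand2 turned above 0 with TMM scaling (0.0096, 0.038 and 0.093). Nkx2-5 was above 0 at 0.45 (0.18 to 0.72). In CM1 alone it was at 0.59 (0.28 to 0.90), just past 1.5-fold and the only 1 of the 9 past it there. Of all genes in CM1, 7.85% were as far higher and 6.64% as far lower. That count of 1 became 0 in thinned nuclei and in nuclei with few UMIs of other cells. KO-Sham was the shallowest library per nucleus, and the median ratio of all genes was −0.095 and that of genes over 50 kb −0.19, against 0.13 for genes under 10 kb. Nkx2-5 spans 6.35 kb, and whether length had a part was not tested. In the MI pair 5 ratios were above 0 and 4 below, and those of Gata4, Mef2c, Mef2d, Nkx2-5 and Tbx5 changed sign under some alternative. The interval left out 0 for Hand2 (0.37, 0.16 to 0.59), Tbx20 (0.12, 0.05 to 0.20) and Mef2a (−0.10, −0.16 to −0.04). The 9 atrial markers summed to 46.0 CPM in the WT-MI library and to 129 in the KO-MI library, with Bmp10 at 0 in both, and their part in these ratios was not tested.

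The populations were made from expression, so their differences are descriptions. The final label CM2 fell mostly on nuclei whose transferred label was CM5 (197 of 275) and the final CM5 on nuclei with the transferred label CM2 (743 of 1017). The 2 names are thus mostly crossed between the columns. The paper describes CM2 cells as found at a low frequency and CM5 cells as induced by injury. Under the final names, CM2 held 275 of the 8585 nuclei. The final CM5 held 89 of 1406 nuclei in WT-Sham, 234 of 3328 in KO-Sham, 339 of 2003 in WT-MI and 355 of 1848 in KO-MI. Which column holds the crossed names was not tested. CM2 and CM5 here are the names of the final deposited column. CM4 was known from earlier work of the same group as the cardiomyocytes of the neonatal heart that enter the cell cycle after injury. In CM4, of the 9 genes 2, Gata4 and Mef2a, were lower than in CM1 past 1.5-fold in all 4 libraries, as were 8.07% of all genes, and none was higher, as were 9.81%. Gata4 was at 230.1, 412, 406 and 323 CPM in CM4 of WT-Sham, KO-Sham, WT-MI and KO-MI, against 730.1, 655, 911 and 936 CPM in CM1. Every CM4 value was below every CM1 value, the log2 ratio running from −1.67 in WT-Sham to −0.67 in KO-Sham. Mef2a was at 311, 437, 384 and 291 CPM in CM4 and at 604 to 769 CPM in CM1, again without overlap. Mef2c (−0.33 to −1.16), Gata6 (−0.21 to −1.16), Mef2d (−0.21 to −1.15) and Tbx20 (−0.55 to −0.76) had ratios below 0 in all 4 libraries, the interval for Gata6 and Mef2d in KO-Sham including 0. Tbx5, with 5 to 14 UMIs in CM4, was below CM1 in WT-Sham, KO-Sham and WT-MI (−1.09, −0.59 and −0.91) and above it in KO-MI (0.22). Only its WT-Sham interval (−2.33 to −0.08) left out 0.

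Nkx2-5 was higher in CM4 than in CM1, though in KO-Sham the interval included 0. It was at 65.7, 58.9, 47.5 and 69.8 CPM there in WT-Sham, KO-Sham, WT-MI and KO-MI and at 28.4, 42.7, 24.5 and 30.1 CPM in CM1. All 4 CM4 values were above the CM1 values, from 20 to 43 UMIs each, with ratios of 1.21 (0.54 to 1.83), 0.46 (−0.03 to 0.93), 0.96 (0.20 to 1.64) and 1.22 (0.53 to 1.84). Hand2 was at 40.3 CPM in both CM4 and CM1 of WT-MI, and its ratios in WT-Sham, KO-Sham and KO-MI were 0.04, 0.29 and 0.44, all with intervals that included 0. These 2 genes have the shortest spans of the 9. In CM4 over CM1 the median of genes under 10 kb was 0.86, 0.44, 0.77 and 0.78 in the 4 libraries and that of genes over 50 kb −0.97, −0.41, −0.42 and −0.69. CM4 nuclei were also the shallowest (median 1716 to 2394 UMIs) with the highest mitochondrial percent (median 9.47% to 14.6%), and their fibroblast markers summed to 2030.1 to 2531 CPM against 916 to 1079 CPM in CM1. The part of length, depth and other cells in the CM4 values was not tested.

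**Figure D4:**
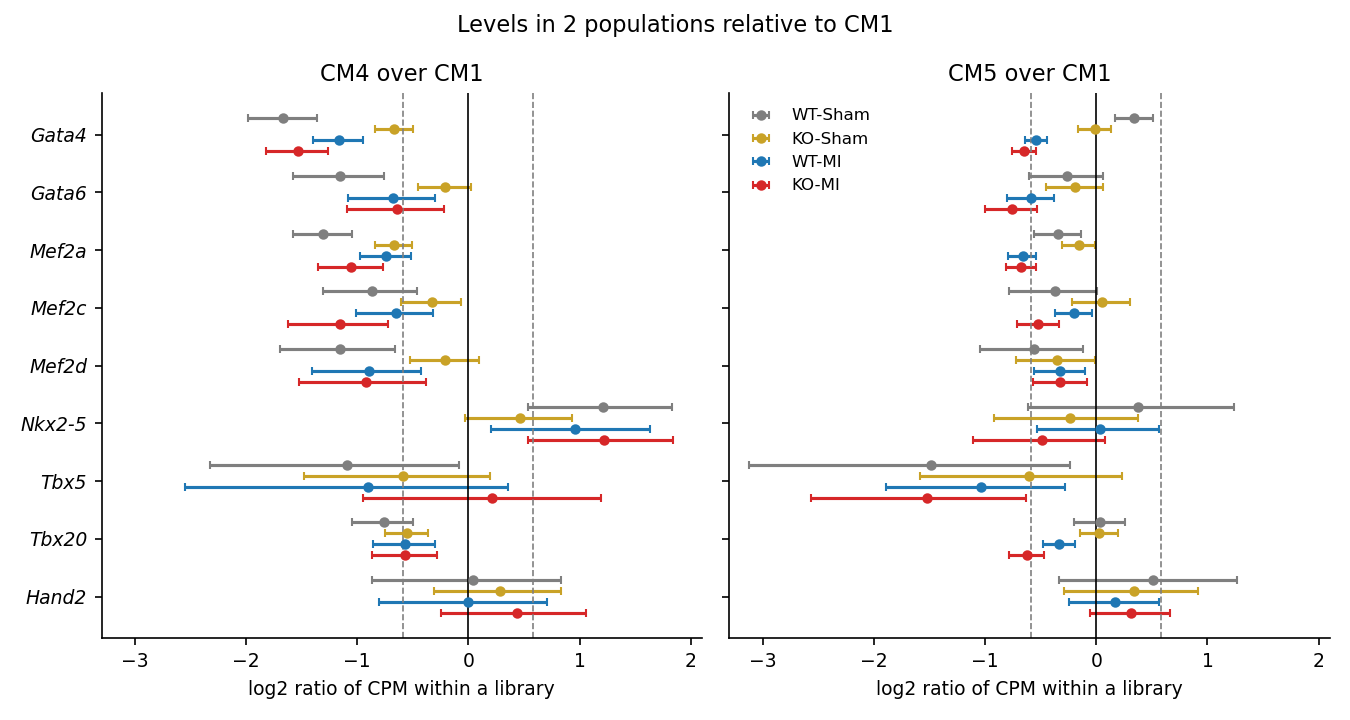
Log2 ratio of CPM in CM4 (left) and CM5 (right) over CM1 of the same library for the 9 genes, with exact 95% counting intervals. Colours are libraries and dashed lines mark 1.5-fold. In CM4, Gata4 and Mef2a lie left of the lower dashed line in all 4 libraries and Nkx2-5 lies right of 0. In CM5, Tbx5 lies left of the lower dashed line in all 4.

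In CM5, 1 of the 9 genes, Tbx5, was past 1.5-fold lower than in CM1 in all 4 libraries, as were 1.42% of all genes, and none was higher, as were 0.704%. Tbx5 was at 15.4, 18.9, 10.8 and 7.83 CPM in CM5 of WT-Sham, KO-Sham, WT-MI and KO-MI, against 43.1, 28.8, 22.2 and 22.5 CPM in CM1. No CM5 value reached the CM1 values, though its ratio in KO-Sham (−0.61, −1.58 to 0.23) includes 0 and CM5 held few Tbx5 UMIs. In thinned nuclei and in nuclei with few UMIs of other cells the count of such genes was 0. Gata4 in CM5 was above CM1 in WT-Sham (0.34, 0.17 to 0.51), level with it in KO-Sham (−0.01, −0.16 to 0.13) and below it in WT-MI (−0.54, −0.64 to −0.44) and KO-MI (−0.65, −0.75 to −0.54). Tbx20, Gata6 and Mef2a also lay furthest below CM1 in the MI libraries. Their ratios in WT-MI and KO-MI were −0.34 and −0.63 for Tbx20, −0.59 and −0.76 for Gata6, and −0.66 and −0.67 for Mef2a. Mef2a was also below CM1 in WT-Sham (−0.34) and KO-Sham (−0.16), and its interval left out 0 in all 4 libraries. The number of nuclei named CM5 was 89 and 234 in WT-Sham and KO-Sham and 339 and 355 in WT-MI and KO-MI, and the Sham and MI nuclei under the name may not be alike.

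Between surgeries within CM5, 2 of the 9 genes were past 1.5-fold lower in WT-MI over WT-Sham (Gata6 at −0.76 and Tbx20 at −0.70), as were 24.3% of all genes, and none was higher, as were 22.8%. In KO-MI over KO-Sham 5 of the 9 were lower past 1.5-fold, as were 18.9% of all genes, and none was higher, as were 25.5%. These were Gata6 (−0.80), Mef2a (−0.72), Tbx20 (−0.74), Nkx2-5 (−0.76) and Tbx5 (−1.27), the intervals of the last 2 including 0, and in thinned nuclei the count was 2. Gata4, which was higher after MI in CM1, was lower in CM5 for WT (−0.56, −0.75 to −0.37), and for KO its ratio was −0.12 (−0.29 to 0.06). Hand2os1 in CM5 was at 593 and 439 CPM in Sham and at 202 and 210.1 CPM in MI, and Hand2 held 18.4% and 22.6% of the pair's UMIs there after MI against 7.66% and 8.82% in Sham. Between genotypes within CM5 none of the 9 was past 1.5-fold in either pair, where 12% of all genes in Sham and 9.7% in MI were higher and 13.8% and 4.82% lower.

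Within CM4, Gata4 was higher after MI in the WT pair and lower in the KO pair, a difference that was not tested. In WT-MI over WT-Sham 1 gene, Gata4, was higher past 1.5-fold (0.82, 0.44 to 1.20), as were 28.5% of all genes, and none was lower, as were 16%. In KO-MI over KO-Sham 1 gene was higher, Hand2 (0.70, −0.15 to 1.54), beside 17.7% of all genes, and 3 were lower, Gata6 (−0.66), Mef2a (−0.59) and Mef2d (−0.64), beside 19.7%. Gata4 there was at −0.35 (−0.68 to −0.03), and at 0.34 in the nuclei with fewer UMIs of other cells, of which CM4 held 11 to 93 a library. In KO-Sham over WT-Sham, Gata4 (0.84, 0.50 to 1.20) and Gata6 (0.69, 0.23 to 1.17) were higher past 1.5-fold, as were 19.9% of all genes, with 10.8% lower. That count was 1 with DESeq2 scaling. It was 5 in the nuclei with fewer UMIs of other cells, 18 in CM4 of WT-Sham and 93 in CM4 of KO-Sham. The share of all genes in those nuclei is not given here, so the 5 is not a result about these genes. In KO-MI over WT-MI 1 of 8 genes compared, Hand2 (0.73, −0.24 to 1.73), was higher, beside 12.3% of all genes, and none was lower, beside 19.3%. In the same 4 contrasts the median of genes over 50 kb was 0.45, −0.18, 0.31 and −0.29, the sign of Gata4 in each, and atrial markers summed to 1254 CPM in CM4 of KO-MI against 83.4 to 135 CPM in the other CM4 sums. The part of either in the CM4 values was not tested.

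CM2, with 27 to 124 nuclei a library, gave no gene past 1.5-fold from CM1 in all 4 libraries, where 4.28% of all genes were higher and 1.04% lower. Its Gata4 level was 725 to 874 CPM and its Mef2a level 592 to 693 CPM. Mef2c was above CM1 in all 4 libraries, at 0.15 to 0.44, though only the KO-Sham interval (0.16 to 0.72) left out 0.

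**Figure D5:**
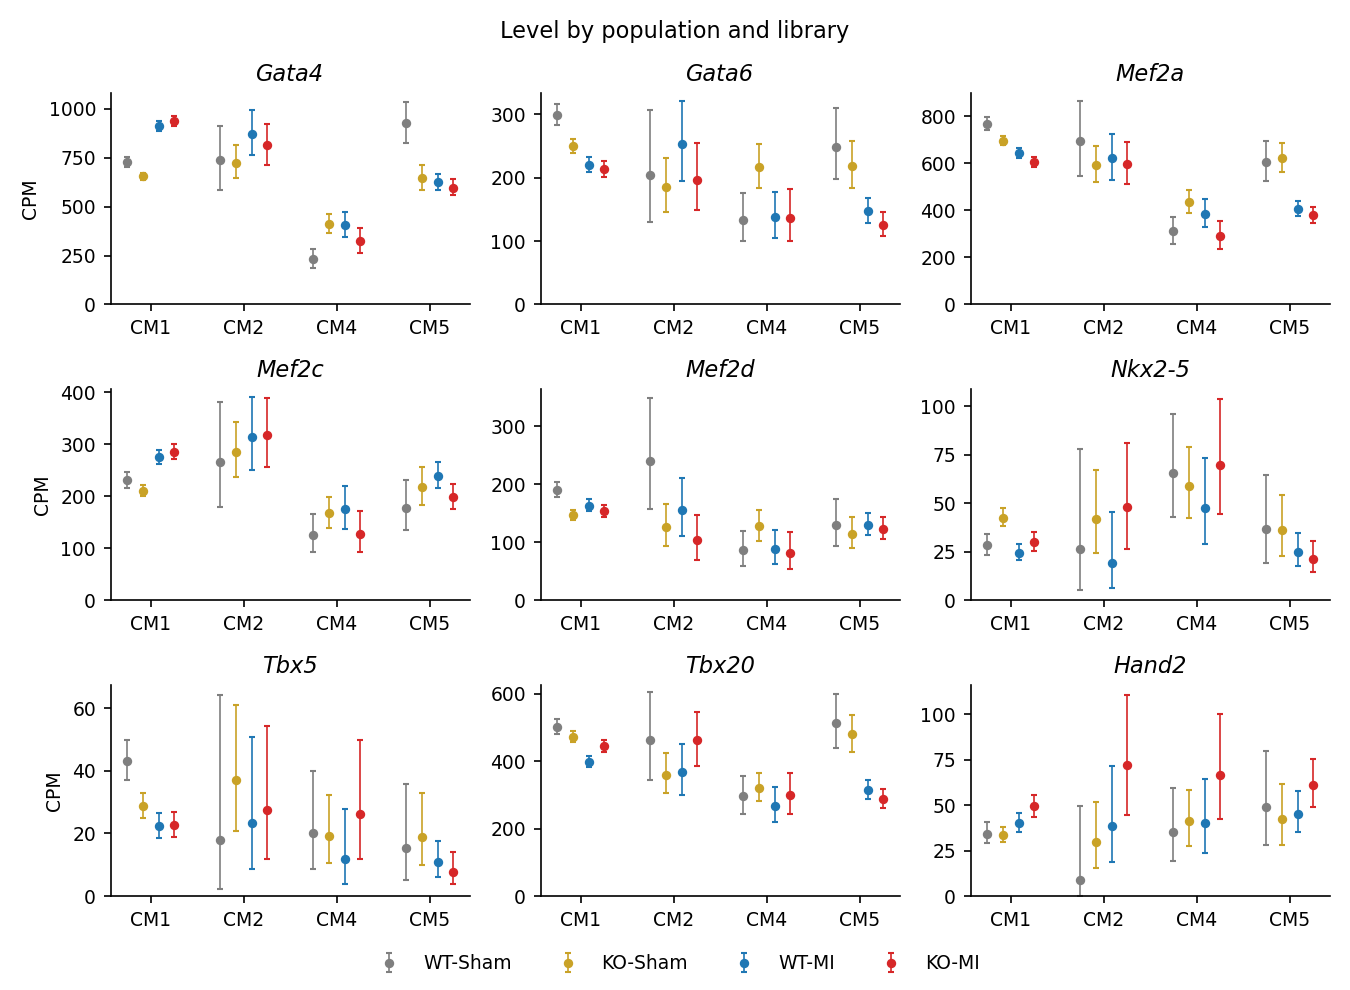
CPM of each of the 9 genes in the 4 populations, by library, with exact 95% Poisson intervals. Each panel has its own axis from 0. Within each library Gata4 and Mef2a have their lowest levels in CM4 and Nkx2-5 its highest. In CM5, Tbx20, Gata6 and Mef2a lie lower in the MI than in the Sham libraries.

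Over the 16 sums of library and population, the genes most like each factor were found by Pearson's r of log2(CPM + 10) among 7080 genes with at least 500 UMIs. They were Phf20l1 and Cap2 for Gata4 (r = 0.97 and 0.96), Dip2c and Cpeb3 for Mef2a (0.98 for both), Eml1 and Bcl9 for Gata6 (0.95 and 0.94), and Zfp266 and Emsy for Mef2c (0.94 for both). They were Pdpr and Slc25a12 for Mef2d (0.92 and 0.91), Sem1 and Mtch1 for Nkx2-5 (0.95 for both), Adra1b and Ank1 for Tbx5 (0.86 for both), Sbk1 and Metap1d for Tbx20 (0.94 and 0.93), and Hars and Fbl for Hand2 (0.97 and 0.92). Adra1b, an alpha-1 adrenergic receptor, and Cap2, an actin regulator, are known in cardiomyocytes. These r values are descriptions over sums that share libraries and depth. Among the 9, r was highest for Mef2a with Gata6 and with Tbx20 (0.88 for both) and for Gata4 with Mef2c (0.85), and lowest for Nkx2-5 with Gata4 (−0.73).

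The partners and targets of the factors were read from lists chosen by name. Their counts stand beside the shares of all genes past 1.5-fold over all nuclei, 12.5% higher and 15.9% lower for the WT pair and 14.1% and 12.5% for the KO pair. Of 20 cofactors, 19 had enough UMIs, and 2 were higher and 1 lower past 1.5-fold in WT-MI over WT-Sham, 2 higher and 0 lower in KO-MI over KO-Sham. Hdac7, a class IIa histone deacetylase that restrains MEF2, was past it in both, at 29.3 and 26.4 CPM in WT-Sham and KO-Sham and 54.6 and 50.4 CPM in WT-MI and KO-MI. Myocd, the coactivator myocardin, gave the most UMIs of the list, with ratios of −0.25 and −0.057. Of 32 other cardiac transcription factors, 24 were compared for WT and 25 for KO, with 3 higher and 8 lower for WT and 2 higher and 4 lower for KO. Hey2, a ventricular repressor of the Notch pathway, was lower in both (−1.35 and −1.36), as were Irx4, an Iroquois factor of the ventricle (−1.08 and −0.80), the thyroid hormone receptor Thra (−0.80 and −0.74) and Tbx2 (−0.81 and −0.62, from 50 UMIs in all), while Tbx18 was higher (0.70 and 0.71). Esrrg, with the most UMIs of that list, was at 0.014 and 0.066.

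Of 20 known target genes, 4 were higher and 8 lower past 1.5-fold for WT, beside 12.5% and 15.9% of all genes. For KO 5 were higher and 5 lower, beside 14.1% and 12.5%. Nppa, atrial natriuretic peptide and a target of GATA4, NKX2-5 and TBX5, was at 179.6 and 297 CPM in WT-Sham and KO-Sham and at 2407 and 3233 CPM in WT-MI and KO-MI. Nppb (4.13 and 3.25) and Myh7 (0.81 and 1.66) were also higher after MI, as was Slc8a1, the sodium-calcium exchanger with the most UMIs of the list (0.75 and 0.79), and Ckm (−1.11 and −1.27) and Myl3 (−0.71 and −1.02) were lower. In KO-Sham over WT-Sham 5 targets were higher and 0 lower, beside 5.74% and 5.61% of all genes, and in KO-MI over WT-MI none of the 20 was past 1.5-fold, beside 3.94% and 3.68%. The medians of the 3 lists were −0.25, −0.21 and −0.50 for WT and −0.021, 0.0077 and −0.29 for KO, and no list was tested as a set.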

How the data were processed

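Single-nucleus RNA sequencing was analysed in 4 libraries, grouped by their titles. Per the study's methods and the submitters' processing notes, the authors used Cell Ranger (version not given in the sources used here) with a pre-mRNA reference of mm10/GRCm38, which counts introns, removed doublets with Scrublet, filtered nuclei on detected genes, integrated the libraries with Seurat 3 and kept cardiomyocyte clusters, marked by Tnnt2. The labels and the methods name different versions of the 10x Genomics kit. The authors deposited raw UMI counts per gene and nucleus, without normalization, with a population label and the percent of mitochondrial UMIs of each nucleus. 11 other per-nucleus columns were not used. No doublet caller was run again.

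Counts were summed per library and population and divided by total UMIs (CPM). Levels have exact Poisson intervals, ratios conditional Clopper-Pearson intervals and shares Clopper-Pearson intervals, all at 95%. They cover counting error only, since nuclei of 1 pool are not replicates, and no test was run. Ratios were compared with a 1.5-fold threshold among genes with at least 20 UMIs over both sums. Spans and positions came from GENCODE M21, which held 98.0% of the symbols, and promoter windows from RefSeq. The 9 genes and the lists were chosen with earlier results of these data known. Named besides the 9 were the 2 genes most like each, list genes past 1.5-fold in both contrasts of a kind (up to 5) or with the most UMIs, genes overlapping a factor or starting within 5 kb of it, and markers at 0 or with the most UMIs. Alternatives were TMM (edgeR 4.0.16) and DESeq2 (1.42.0) factors, thinning to 1000 UMIs, mean CPM per nucleus, other nuclei, denominators, labels and UMI minimums. Python 3.11.15 and scipy 1.17.1 were used, and the ratio script was tested on simulated data.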

Additional observations from a re-analysis of the deposited data

Results flagged for a closer look

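Tbx20 was lower in KO-Sham than in WT-Sham (log2 ratio −0.09, −0.16 to −0.02) and higher in the library labelled KO-MI than in WT-MI (0.12, 0.05 to 0.20), a difference of 0.21 between the ratios, and in CM1 alone (−0.09 and 0.16) a difference of 0.25. The difference itself was not tested, and the Sham ratio turns to 0.0096 with TMM scaling. Gata4 in CM4 was higher after MI for WT (0.82) and lower for KO (−0.35), a difference of −1.17 that was not tested, and Mef2a in CM4 was higher in KO-Sham than WT-Sham (0.49, 0.19 to 0.80) and lower in the library labelled KO-MI than in WT-MI (−0.40, −0.78 to −0.03), a difference of −0.89 that was not tested. These CM4 sums hold 91 to 301 UMIs of Gata4 and 100 to 319 of Mef2a, and genes over 50 kb had medians of the same signs in these contrasts. With 1 library per group none of these differences can be set against a spread between replicates.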

How the results depend on the processing

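With 1 library per group nothing here has a replicate check, and genes with few UMIs (Tbx5, Nkx2-5 and Hand2, and all genes in CM2 and CM4) are limited by depth. No paired analysis was possible because each group holds 1 library. Leaving out every nucleus with a UMI of another cell type kept 21 nuclei in all and was not run. The nuclei at or below their library's median percent of such UMIs were used instead, chosen after the data were seen, as were both alternatives for the antisense shares. Over all nuclei, the ratios of MI over Sham kept their sign under every alternative run for Gata4, Gata6, Mef2a, Mef2c, Tbx5, Tbx20 and Hand2. Those of Nkx2-5 for WT reversed with thinning (0.017), and that of Tbx20 in KO-Sham over WT-Sham with TMM scaling (0.0096). Mef2a in CM2 over CM1 of KO-Sham reversed with thinning (0.013). In nuclei with few other-cell UMIs, of which CM4 kept 11 to 93 a library, KO-MI over KO-Sham in CM4 reversed for Gata4 (0.34) and Mef2d (0.32), KO-MI over WT-MI in CM4 for Mef2a (0.43), CM4 over CM1 in KO-MI for Mef2d (0.017) and Tbx20 (0.13), and CM5 over CM1 in WT-MI for Mef2c (0.058). Of the other single ratios, 49 of 272 with thinning and 31 of 276 in those nuclei left the counting interval, and 19 of 278 with TMM scaling.

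TMM scaling moved the median of all genes by 0.10 in KO-Sham over WT-Sham and by up to 0.24 in CM2, and DESeq2 size factors by up to −0.22 in CM4. Of 320 counts and shares recomputed, 268 stayed within 1.5 times the value reported, or within the interval of a share, and 52 did not. The causes were not tested. Over all nuclei, Hand2 was no longer past 1.5-fold in KO-MI over KO-Sham with TMM, DESeq2 or thinning (0 in place of 1), and 1 gene was lower there with thinning and in nuclei with few other-cell UMIs (in place of 0). In CM1, CM2, CM4 and CM5, counts of genes past 1.5-fold between libraries that were 0 to 2 became 0, 1, 2 or 3 with another UMI minimum, scaling or thinning, 5 genes lower in KO-MI over KO-Sham of CM5 became 2 with thinning, and in nuclei with few other-cell UMIs the 2 genes higher in KO-Sham over WT-Sham of CM4 became 5, the 3 lower in KO-MI over KO-Sham of CM4 became 1, and other counts were 0 or 1. The gene lower in CM5 than CM1 in all 4 libraries became 0 with thinning and in nuclei with few other-cell UMIs. Thinning gave shares of 79.3% for Gata4 in WT-MI, 3.98% for Tbx5 in KO-MI and 47.8% for Gata6 of its antisense pair in KO-Sham.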

Other observations

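The other genes on the strand opposite to a factor were low or uneven. Gm43050, which starts 748 bp from Tbx5, was at 6.42, 5.71, 2.89 and 3.26 CPM in WT-Sham, KO-Sham, WT-MI and KO-MI, and Gm29824, which starts 2164 bp from Tbx20, at 8.22, 7.36, 5.78 and 4.35 CPM. Both were lower in the MI libraries, from 23 to 67 UMIs each, although the interval of Gm29824 for WT (−0.51, −1.15 to 0.14) includes 0. Lysmd4, which overlaps Mef2a, was at 136, 114, 103 and 110.3 CPM. In CM4 it gave 5, 65, 17 and 11 UMIs in the same order, and 1010001N08Rik 19, 131, 17 and 11 UMIs, so that both were highest in KO-Sham. 1700113A16Rik, which overlaps Mef2d, gave 14 to 24 UMIs a library.

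The 10 nuclei with the most UMIs of a gene held at most 2.95% of its UMIs in a library for Mef2a and 3.11% for Gata4, and up to 14.9% for Tbx5, 13.8% for Nkx2-5 and 12.1% for Hand2.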
